A study of Mus musculus with 18 samples.

Results

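The nuclear factor I (NFI) family comprises 4 genes in the mouse, Nfia, Nfib, Nfic and Nfix. The family was picked with earlier results of these data known, its members are all genes of that name, with no measured value used to tell them from others, and all 4 were among the 46078 genes counted by RNA-seq. ATAC-seq, which counts reads where a transposase could cut open chromatin, was followed on 147 of 111664 peaks, those with their middle between 5000 bp upstream of 1 of these genes and its end. Of these peaks 60 belonged to Nfib, 42 to Nfia, 31 to Nfix and 14 to Nfic. All 4 genes and all 147 peaks passed the filter on low counts.

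NFI proteins bind DNA as dimers through a conserved amino-terminal domain, at palindromes made of TTGGC and its reverse complement. Their carboxy-terminal parts differ more and carry the parts that activate or repress transcription. NFIB and NFIA are known for glial differentiation and NFIB for maturation of the lung, NFIX for neural stem cells and muscle, and NFIC for tooth roots. In small cell lung cancer the gene NFIB is often amplified, and CARM1 is an arginine methyltransferase and transcriptional coactivator that methylates NFIB.

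RNA-seq and ATAC-seq each covered 9 libraries, 3 of each of 3 genotypes, from lung tumors of 3 animals a genotype according to the labels. TKO mice carried conditional alleles of Rb1, p53 and Rbl1 (Rbl1 in the labels and the Methods, Rbl2 in the Results of the study), which the other genotypes carried too. TKO;Carm1 mice had a conditional Carm1 allele in addition (CARM1 knockout). TKO;NfibR388K mice had a germline knock-in allele of Nfib in addition, made by CRISPR editing, in which lysine replaces the arginine that CARM1 methylates (NFIB mutant). Adenoviral Cre, which recombines whichever airway cells it infects, was given into the trachea at 8 weeks of age, and cells were taken 28 weeks later. By the Methods they were sorted for a Cre-activated tdTomato reporter, and they are also called cell lines there and biopsies in the Results, so whether they had been in culture is not settled here.

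Counts on genes ranged from 15848866 to 20915057 per RNA-seq library and counts on peaks from 26917178 to 47653979 per ATAC-seq library. Levels are given in CPM, read counts relative to library size, scaled by TMM factors, which align libraries on the bulk of genes or peaks. The targeted Carm1 stood at 97.7, 103 and 44.5 CPM in TKO, 63.4, 79.1 and 50.8 CPM in CARM1 knockout and 100.4, 104 and 102 CPM in NFIB mutant libraries. Its groups overlapped, and counts over a whole gene cannot show whether some of its exons were deleted. The libraries differed widely in cell type markers. The summed level of 12 neuroendocrine markers, which define this cancer, was 1891 to 4399 CPM in TKO, 59.4 to 1889 CPM in CARM1 knockout and 34.0 to 51.3 CPM in NFIB mutant libraries. Among the mutants CARM1 knockout library 3 stood apart, with a sum of 1889 CPM, of which Calca made up 833 CPM, against 34.0 to 188 CPM in the other 5. In those 5 libraries the markers were not alike. Insm1 and Chga were below 5 CPM, while Ncam1 reached 149 CPM in CARM1 knockout library 2, above its 99.3 CPM in library 3 and below the 159 to 284 CPM of TKO. CARM1 knockout library 3 in turn was below TKO in Insm1, at 83.9 CPM against 254 to 326 CPM, and within the TKO range in Chga. Summed over 8 fibroblast markers the level was 20.3 to 73.2 CPM in TKO, 15335 to 27006 CPM in CARM1 knockout and 10639 to 16803 CPM in NFIB mutant libraries. In these bulk samples fewer cells of a type and less RNA per cell cannot be told apart.

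The codon that was edited lies in Nfib. The window below shows codon 388 of the reference allele in capitals, within coding exon 8 at chr4:82327810-82327812 (GRCm38, minus strand), and the arginine codon in the like stretch of Nfic, codon 395 of transcript ENSMUST00000020461 at chr10:81404908-81404910 (minus strand, coding exon 8). Both are read in the direction of transcription, from the RefSeq genome, and are shown because the NFIB mutant libraries differ from TKO by design at this codon.
Nfib codon 388: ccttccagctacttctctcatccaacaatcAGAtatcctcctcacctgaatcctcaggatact
Nfic codon 395: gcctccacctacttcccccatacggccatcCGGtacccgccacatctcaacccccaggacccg
The encoded change is R388K, counted from the first methionine. The recognition site of EcoRV, used for genotyping, overlaps the Nfib codon and is absent around that of Nfic. The counts do not hold the bases of the reads, so the allele itself was not checked.

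Nfib (ENSMUSG00000008575, chr4:82290173-82705750, minus strand) was lower in every mutant library than in every TKO library. Its level was 420.2, 579.9 and 571 CPM in the TKO libraries. It was 74.5, 216 and 87.2 CPM in CARM1 knockout and 105, 83.3 and 91.4 CPM in NFIB mutant libraries. The groups did not overlap, as for 23.3% of all genes with every mutant library below every TKO library, and CARM1 knockout library 2 was the highest of the mutant libraries. With edgeR's quasi-likelihood test and Benjamini-Hochberg adjustment over all genes, Nfib fell 4.16-fold in the CARM1 knockout (log2 fold change -2.06 ± 0.40 (SE), adjusted p = 0.008). The fall in the NFIB mutant was 5.61-fold (log2 fold change -2.49 ± 0.41 (SE), adjusted p = 0.0033). As in the Methods, a gene counted as called where its adjusted p was below 0.1 and its log2 fold change reached 0.8 in either direction. Of 15514 genes tested, 18.3% were called lower and 20.5% higher in the CARM1 knockout, and 23.5% lower and 22.3% higher in the NFIB mutant, so a call by itself was common. CARM1 knockout library 3 had 87.2 CPM of Nfib, within the range of the other mutant libraries. Without it the log2 fold change of Nfib in the CARM1 knockout was -1.81 (adjusted p = 0.023).

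**Figure D1:**
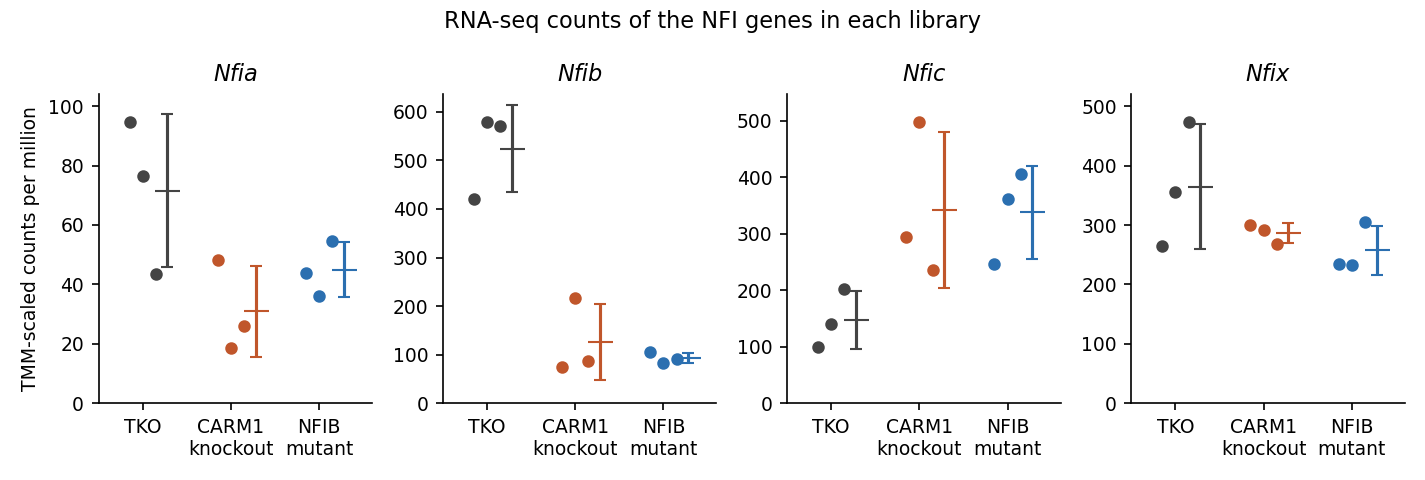
RNA-seq level of each NFI gene in TMM-scaled CPM (vertical axis, from 0, its own scale for each gene) in the 3 libraries of each genotype (points), with the mean and SD of the group beside them (bar and whiskers). All 6 mutant libraries lie below all TKO libraries for Nfib and above them for Nfic, and the groups overlap for Nfia and Nfix.

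Nfic (ENSMUSG00000055053, chr10:81396186-81455635, minus strand) moved the other way. Its level was 98.6, 141 and 202 CPM in TKO, 294, 498 and 235 CPM in CARM1 knockout and 246, 361 and 406 CPM in NFIB mutant libraries. Every mutant library was above every TKO library, as for 22.3% of all genes, with TKO library 3 and CARM1 knockout library 3 the closest. The rise was 2.32-fold in the CARM1 knockout (log2 fold change 1.22 ± 0.37 (SE), adjusted p = 0.037) and 2.29-fold in the NFIB mutant (log2 fold change 1.2 ± 0.37 (SE), adjusted p = 0.033). The call in the CARM1 knockout was lost without TKO library 1 (log2 fold change 1.01, adjusted p = 0.11) or without CARM1 knockout library 2 (0.85, adjusted p = 0.11), and held without CARM1 knockout library 3 (1.47, adjusted p = 0.028).

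Nfia (ENSMUSG00000028565, chr4:97772734-98118874, plus strand) overlapped between the genotypes. It was at 94.8, 76.3 and 43.6 CPM in TKO, 48.1, 18.4 and 26.1 CPM in CARM1 knockout and 43.7, 36.2 and 54.8 CPM in NFIB mutant libraries. TKO library 3 was low, and mutant libraries of both genotypes reached above it. In the CARM1 knockout Nfia fell 2.32-fold (log2 fold change -1.21 ± 0.41 (SE), adjusted p = 0.052). That call was lost without TKO library 1 (adjusted p = 0.16) or TKO library 2 (adjusted p = 0.12). It was also lost without CARM1 knockout library 2 (adjusted p = 0.14) or library 3 (adjusted p = 0.13). The difference of the NFIB mutant did not pass (log2 fold change -0.67 ± 0.41 (SE), adjusted p = 0.21, 95% interval -1.61 to 0.27).

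Nfix (ENSMUSG00000001911, chr8:84699876-84800344, minus strand) passed in neither mutant. Its level was 265, 355 and 474 CPM in TKO, 301, 291 and 268 CPM in CARM1 knockout and 234, 233 and 305 CPM in NFIB mutant libraries. The TKO libraries spread widest, and the mutant libraries lay around the lowest of them. The log2 fold change was -0.35 in the CARM1 knockout (95% interval -0.88 to 0.18, adjusted p = 0.26 by edgeR) and -0.50 in the NFIB mutant (95% interval -1.03 to 0.03, adjusted p = 0.11). Scaling by library totals alone shifted the median gene by -0.27 and -0.33 in the 2 mutants, and under it Nfix and Nfia were called lower in the NFIB mutant as well (-0.84 and -1.0). The calls of Nfib and Nfic kept their direction in both mutants under that scaling.

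With both mutants pooled against TKO, Nfib fell (log2 fold change -2.27 ± 0.32 (SE), adjusted p = 0.0015) and Nfic rose (log2 fold change 1.21 ± 0.34 (SE), adjusted p = 0.02). Nfia also fell (log2 fold change -0.94 ± 0.34 (SE), adjusted p = 0.051), and Nfix did not pass (log2 fold change -0.42 ± 0.20 (SE), adjusted p = 0.11). Here 24.7% of genes were called lower and 22.3% higher. The comparisons of the mutants share their TKO libraries, so their agreement is not independent. Compared directly, no NFI gene passed between the mutants. The log2 difference of CARM1 knockout minus NFIB mutant was 0.43 for Nfib (95% interval -0.47 to 1.33) and -0.54 for Nfia (-1.48 to 0.40). It was 0.02 for Nfic (-0.83 to 0.86) and 0.15 for Nfix (-0.38 to 0.69), so differences of the size of those from TKO were within some of these intervals. By edgeR 0 of 15514 genes (0%) were called in this comparison, with 1414 at an unadjusted p under 0.05, and DESeq2 called 321 higher and 225 lower.

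To compare the genes with each other, levels were divided by the length of their merged exons and are given as CPM per kb. Per length, Nfix led in TKO at 36.0, 48.3 and 64.5, followed by Nfib at 28.1, 38.8 and 38.2. Nfic stood at 14.9, 21.3 and 30.5 and Nfia at 8.70, 7.01 and 4.01. The order Nfix, Nfib, Nfic, Nfia was the same in all 3 TKO libraries. In the mutants Nfic led at 44.3, 75.1 and 35.4 in the CARM1 knockout and 37.2, 54.4 and 61.3 in the NFIB mutant. Nfix stood at 40.9, 39.6 and 36.5 and 31.9, 31.7 and 41.5. The ranges of Nfic and Nfix overlapped within each mutant, and CARM1 knockout library 3 had Nfix above Nfic. Within TKO the ranges of Nfix and Nfib overlapped, as did those of Nfib and Nfic. Nfib was the third in all 6 mutant libraries, at 4.98, 14.4 and 5.83 in CARM1 knockout and 7.03, 5.57 and 6.11 in NFIB mutant libraries. Nfia was the last in every library and did not overlap with its neighbour in any genotype, at 4.41, 1.69 and 2.40 and 4.01, 3.33 and 5.03.

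As a share of the family's RNA, Nfib was lower and Nfic higher in every mutant library than in any TKO library, while the sum over the family overlapped. The summed level per length was 113 ± 24.8 in the TKO libraries, 102 ± 26.1 in CARM1 knockout and 96.3 ± 17.0 in NFIB mutant libraries (SD, n = 3 each). Of this sum Nfib made up 31.2% ± 3.0 in TKO, 7.86% ± 2.93 in the CARM1 knockout and 6.67% ± 1.84 in the NFIB mutant (SD, n = 3 each). The share of Nfic was 19.2% ± 2.71, 49.5% ± 6.99 and 52.5% ± 5.55 in the same order. For Nfix it was 43.3% ± 3.24, 39.7% ± 8.23 and 36.5% ± 3.22, and for Nfia 6.31% ± 3.51, 2.98% ± 1.69 and 4.31% ± 0.760. Per length Nfic stood at 0.529 to 0.799 times the level of Nfib in TKO libraries. This ratio, which no scaling between libraries can move, was 5.20 to 8.89 in CARM1 knockout and 5.29 to 10.02 in NFIB mutant libraries. Among 15460 genes ranked by mean level per length, Nfib was number 1149 in TKO, 5809 in the CARM1 knockout and 6879 in the NFIB mutant, while Nfic was number 2040, 1008 and 1118.

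**Figure D2:**
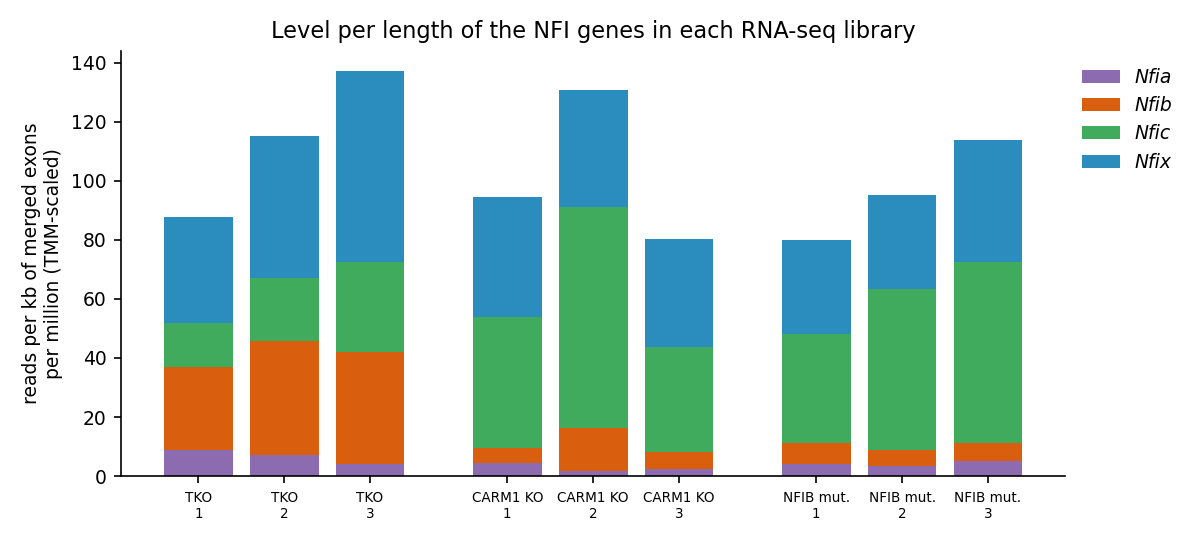
CPM per kb of merged exons (vertical axis, TMM-scaled) of Nfia, Nfib, Nfic and Nfix, stacked for each of the 9 RNA-seq libraries, with no error since each bar is 1 library. Nfib takes 27.8 to 33.6% of the bar in TKO and 5.26 to 11.03% in the mutants, while the height of the bars overlaps between genotypes.

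The genes whose level was most alike over the 9 RNA-seq libraries were sought among 9750 genes of at least 3 log2 CPM on average, by Pearson's r of log2 CPM. For Nfib they were Lrrc1 (r = 0.987), Capn15, Rab11fip3, Mau2 and Ube2e3 (r = 0.974 for the last). Nfic was most like Map2k2 (r = 0.982), Ppp2r5b, Cog8, Ndufa10 and Ywhag. For Nfix these were Ints4 (r = 0.965), Sgf29, Zfp358, Irgq and Gpatch11, and for Nfia Ppm1k (r = 0.934), Rnaseh2b, Dscc1, Zfp945 and Haus2. An r above 0.9 was shared by 296 genes with Nfib and 228 with Nfic, against 11 with Nfix and 5 with Nfia. Each value describes 9 points. For Nfib and Nfic the 3 TKO libraries lay apart from the 6 mutant ones, while for Nfia and Nfix they overlapped. Such a gap was common, with all mutant libraries lower for 23.3% of all genes and higher for 22.3%. Its part in the correlations was not tested.

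At the chromatin level, the peaks of the NFI genes changed in both directions. For peaks, and for sums of peaks, the log2 fold change had to reach 0.5 in either direction, with the same limit on the adjusted p. In the CARM1 knockout 37 of the 147 peaks were higher and 60 lower, against 38.7% higher and 32.4% lower of all 111116 peaks tested. In the NFIB mutant 38 were higher and 55 lower, against 39.3% and 34.0% of all. Higher in both mutants were 29 peaks and lower in both 52, where the background was 35.0% and 30.8%, and 0 peaks were called in opposite directions. As shares of the 147 these are 19.7% and 35.4%, the first below its background and the second near it. All 6 mutant libraries were above all TKO libraries at 27 of the peaks and below them at 48, against 33.1% and 28.6% of all peaks. Without CARM1 knockout library 3 the counts of that genotype were 35 higher and 56 lower. Of all 111652 peaks then tested, 41487 were higher and 35419 lower. The split depends on scaling. Scaled on peaks at start sites of evenly expressed genes, the kind of scaling that the Methods name, the CARM1 knockout had 47 higher and 47 lower, and the NFIB mutant 50 higher and 46 lower. Of all 111116 peaks this scaling called 49337 higher and 29167 lower in the CARM1 knockout, and 51059 and 30006 in the NFIB mutant. Scaled by library totals the counts were 52 and 41, and 54 and 43. Over all peaks these were 52571 and 27254, and 52670 and 29271. In both scalings the surplus of higher peaks was relatively larger over all peaks than in the family. Relative to TMM these scalings shifted the median peak by 0.41 and 0.48 (start sites) or 0.58 and 0.57 (totals) in the CARM1 knockout and the NFIB mutant. Between the mutants 0 of the 147 peaks and 0 of all 111116 (0%) were called by edgeR, with 6813 of all at an unadjusted p under 0.05, while DESeq2 called 523 higher and 537 lower.

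**Figure D3:**
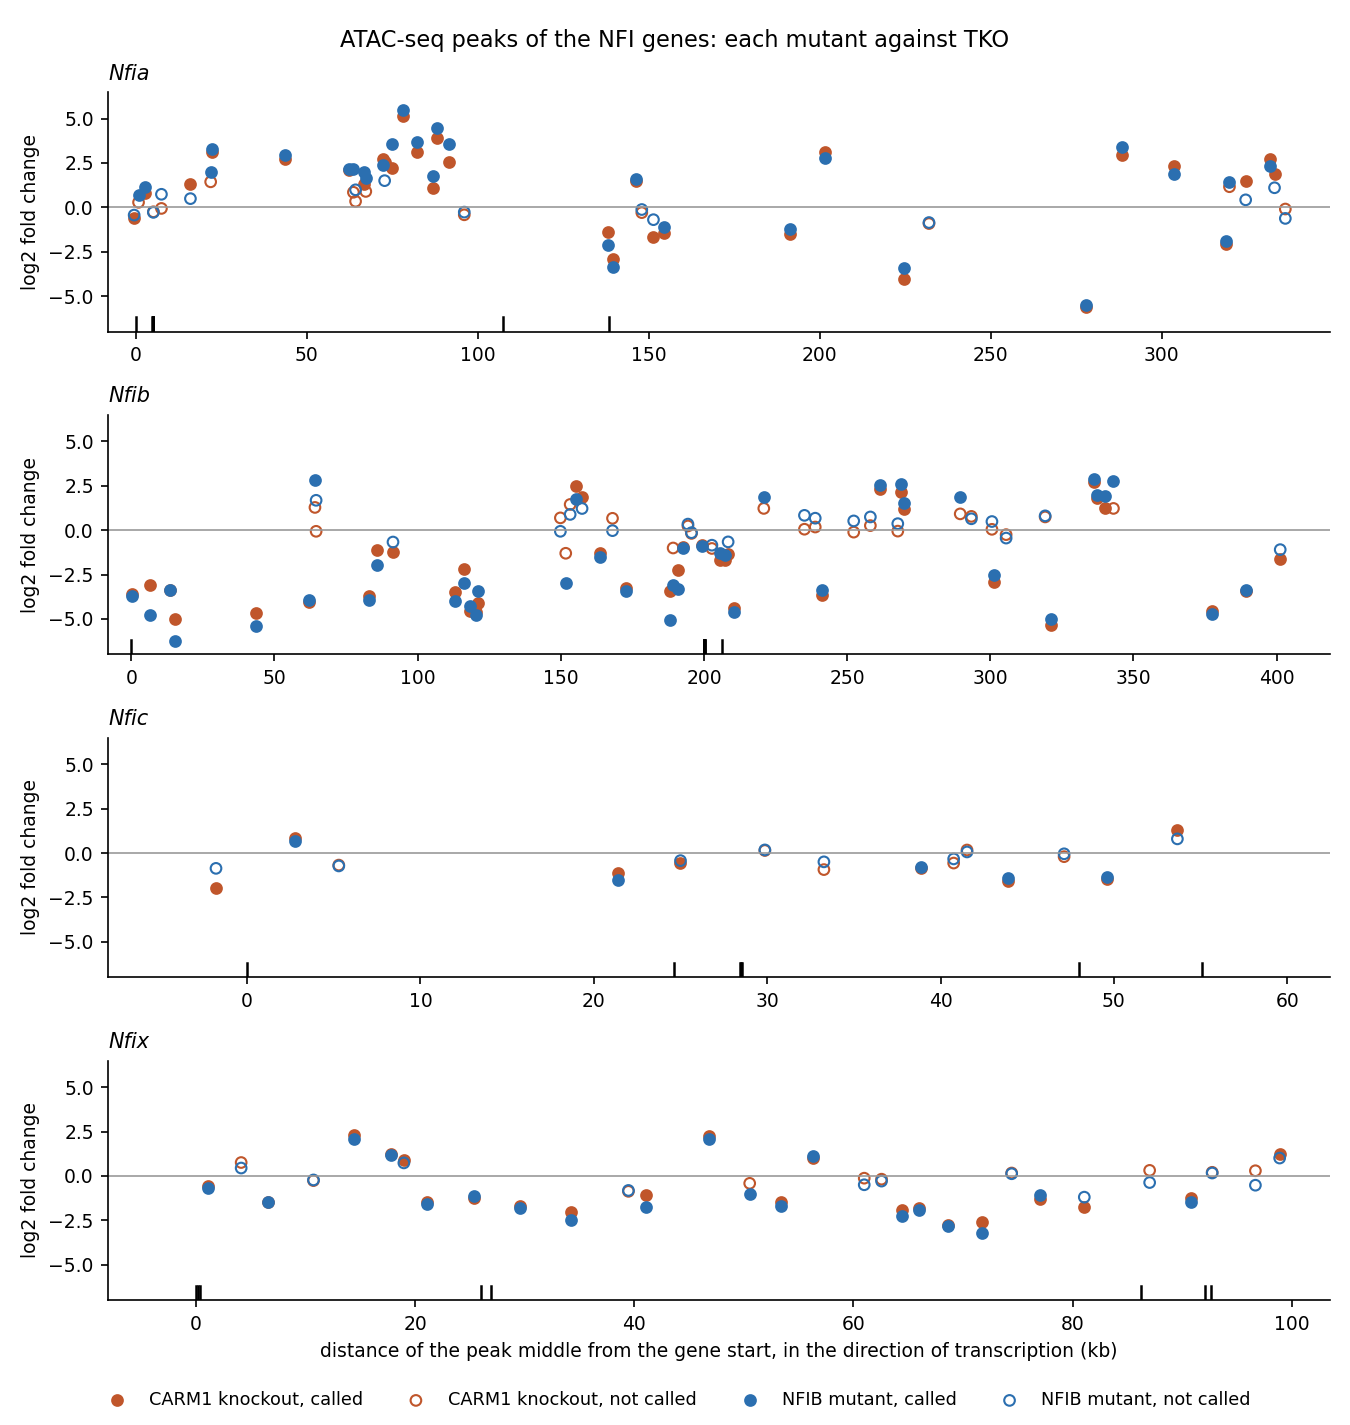
Log2 fold change (vertical axis) of each ATAC-seq peak of the 4 NFI genes in the CARM1 knockout and in the NFIB mutant against TKO, by the distance of its middle from the gene start in kb (horizontal axis, in the direction of transcription). Filled points passed the test, open points did not, and ticks above the axis mark annotated transcript starts; falls crowd the first 121 kb of Nfib and rises the stretch from 10 to 95 kb of Nfia.

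Of the 60 peaks of Nfib 27 were lower and 7 higher in both mutants. These are 45% and 11.7%, against 30.8% and 35.0% of all peaks. With start-site scaling 23 were lower and 11 higher in both, and with library totals 21 and 13. Summed over all 60, the level was 396, 400.0 and 469 CPM in TKO libraries. It was 173, 275 and 179 CPM in CARM1 knockout and 195, 206 and 246 CPM in NFIB mutant libraries. The groups did not overlap. The sum fell in both mutants, by edgeR across the sums of 28132 genes, where 32.4% were called lower and 21.4% higher in the CARM1 knockout and 36.6% and 21.9% in the NFIB mutant (log2 fold change -1.01 ± 0.20 (SE), adjusted p = 0.0023, and log2 fold change -0.97 ± 0.20 (SE), adjusted p = 0.0026). With start-site scaling the call was kept in the CARM1 knockout and the NFIB mutant stood at -0.49, short of the threshold in size, and with library totals both calls were lost (-0.45 and -0.41).

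The falls at Nfib crowded the first 121 kb of the gene, the outer part of the stretch upstream of its main start. Of its 7 coding transcripts 6 start within 0.5 kb at 200 kb into the gene, called the main start here, and 1 starts at the very beginning. The main start peak (chr4:82504112-82508674) was at 69.5, 70.2 and 104 CPM in TKO, 35.7, 59.0 and 41.3 CPM in CARM1 knockout and 40.1, 45.2 and 43.7 CPM in NFIB mutant libraries. It fell in both mutants (log2 fold changes -0.84 and -0.92, adjusted p = 0.0054 and 0.0033 by edgeR) without overlap between groups. Both calls were lost under start-site scaling (-0.45 and -0.44) and under library totals (-0.29 and -0.38). The peak at the upstream start (chr4:82705134-82706014) was at 1.85, 8.28 and 1.14 CPM in TKO, with library 2 the highest, and at 0.517, 0.0576 and 0.363 CPM in CARM1 knockout and 0.359, 0.361 and 0.137 CPM in NFIB mutant libraries. Its log2 fold changes were -3.60 and -3.72 (adjusted p = 0.0063 and 0.0052), and both calls held under the other scalings. The other peaks at annotated starts of Nfib, chr4:82499004-82501024 and chr4:82497770-82498764, lay just inside the transcribed part and fell as well (log2 fold changes -1.70 and -1.29, and -1.68 and -1.43), but the calls in the NFIB mutant were lost under start-site scaling (adjusted p = 0.12 and 0.13) and under library totals (adjusted p = 0.18 and 0.16).

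The first 121 kb of the gene held 16 peaks, of which 13 were lower in both mutants and 0 higher in both, with median log2 fold changes of -3.55 and -3.82. This stretch, like the others described here, was picked after its values had been seen, so its sum is given with no test. Summed over it the level was 113, 113 and 87.0 CPM in TKO, 6.85, 10.4 and 12.2 CPM in CARM1 knockout and 7.98, 6.66 and 12.1 CPM in NFIB mutant libraries. The third library was the highest of each mutant. Under start-site scaling and under library totals, 12 of the 16 were lower in both and 0 higher. The whole part upstream of the main start peak, which includes these 16, held 30 peaks, 18 lower and 1 higher in both mutants. Its sum was 209, 203 and 215 CPM in TKO libraries. It was 67.0, 109 and 73.0 CPM in CARM1 knockout and 61.9, 76.2 and 81.0 CPM in NFIB mutant libraries. There start-site scaling gave 17 lower and 3 higher in both, and library totals 15 and 3. Between the main start and the end of the gene the 29 peaks were mixed, 8 lower and 6 higher in both mutants, and their sum was 120.0, 129 and 151 CPM in TKO, 70.1, 107 and 64.1 CPM in CARM1 knockout and 93.2, 84.6 and 121 CPM in NFIB mutant libraries. The balance turned under the other scalings, with 6 lower and 8 higher by start sites and 6 lower and 10 higher by totals. The largest falls of Nfib among peaks of at least 1 CPM, chr4:82689832-82690882, chr4:82661484-82663009 and chr4:82383849-82385270, were all intronic. The first of these was at 13.9, 19.2 and 21.1 CPM in TKO, 0.543, 0.346 and 0.774 CPM in CARM1 knockout and 0.299, 0.120 and 0.294 CPM in NFIB mutant libraries, 15393 bp into the gene. Its log2 fold changes were -5.03 and -6.23 (adjusted p = 4.3e-05 and 1.9e-05). Against them stood 3 intronic rises, chr4:82368962-82370124, chr4:82436658-82437440 and chr4:82443608-82445022. The first was at 0.893, 0.834 and 1.90 CPM in TKO, 6.23, 11.3 and 6.19 CPM in CARM1 knockout and 6.25, 8.71 and 11.2 CPM in NFIB mutant libraries (log2 fold changes 2.72 and 2.86). The middle 300 bases of the largest fall and of the largest rise are shown in the direction of the plus strand of GRCm38, from RefSeq, with the motifs searched in capitals.
Nfib fall, chr4:82690208-82690507: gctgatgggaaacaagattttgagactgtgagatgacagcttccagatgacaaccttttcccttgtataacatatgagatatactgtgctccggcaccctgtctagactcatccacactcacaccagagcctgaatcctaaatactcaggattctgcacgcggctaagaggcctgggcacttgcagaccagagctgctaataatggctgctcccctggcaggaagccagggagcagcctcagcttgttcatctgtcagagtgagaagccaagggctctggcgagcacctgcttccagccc
Nfib rise, chr4:82369394-82369693: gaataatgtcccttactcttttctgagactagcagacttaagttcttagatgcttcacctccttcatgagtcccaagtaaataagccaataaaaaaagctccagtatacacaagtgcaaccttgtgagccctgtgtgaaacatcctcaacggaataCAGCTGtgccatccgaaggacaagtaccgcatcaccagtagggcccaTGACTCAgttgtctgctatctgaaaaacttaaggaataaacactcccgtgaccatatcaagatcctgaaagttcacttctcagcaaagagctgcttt
The first holds none of the motifs searched, and the second holds CAGCTG and TGACTCA, a form of the AP-1 motif TGANTCA.

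The peak nearest to the edited codon, chr4:82328050-82328531, begins 238 bp from it and does not cover it. It was at 2.68, 4.20 and 0.761 CPM in TKO, 0.0517, 0.211 and 0.0484 CPM in CARM1 knockout and 0.120, 0 and 0.157 CPM in NFIB mutant libraries. It fell in the NFIB mutant (-4.73 ± 1.01 (SE), adjusted p = 0.0022 by edgeR) and in the CARM1 knockout (-4.53 ± 1.0 (SE), adjusted p = 0.0027). The mutant levels were close to the limit of detection, and the cause of either fall was not tested.

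**Figure D4:**
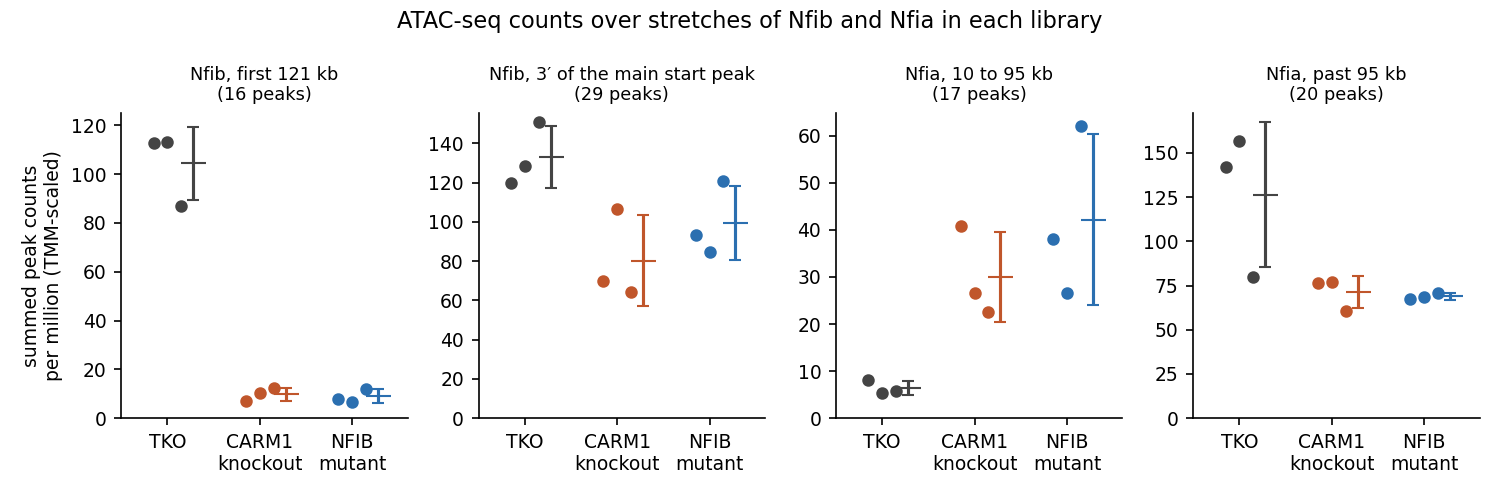
Summed ATAC-seq CPM (vertical axis, from 0, TMM-scaled, its own scale in each panel) over 2 stretches of Nfib and 2 of Nfia in the 3 libraries of each genotype (points), with mean and SD (bar and whiskers). In the first 121 kb of Nfib the mutant libraries reach at most 12.2 CPM against at least 87.0 CPM in TKO, and from 10 to 95 kb of Nfia the mutants have at least 22.5 CPM against at most 8.06 CPM in TKO.

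Nfia showed the opposite balance to Nfib, with 17 of its 42 peaks higher and 7 lower in both mutants. These are 40.5% and 16.7%, against 35.0% and 30.8% of all peaks, so the higher share was near the background. Such shares of all peaks are not given for the other scalings. There Nfia had 22 higher and 4 lower with start-site scaling and 23 and 4 with library totals. The sum of its peaks was 212, 219 and 147 CPM in TKO, 165, 161 and 129 CPM in CARM1 knockout and 159.9, 161 and 181 CPM in NFIB mutant libraries, overlapping and not called (-0.35 and -0.20, adjusted p = 0.13 and 0.35 by edgeR). The sign of this sum turned positive under start-site scaling (0.07 and 0.28). Rises gathered from 10 to 95 kb into the gene, where 11 of 17 peaks were higher in both mutants and 0 lower. Summed there, the level was 8.06, 5.41 and 5.75 CPM in TKO, 40.9, 26.5 and 22.5 CPM in CARM1 knockout and 38.1, 26.6 and 62.0 CPM in NFIB mutant libraries. The TKO level is low for a sum over 17 peaks, so the size of these rises is imprecise. Start-site scaling gave 13 and library totals 14 of the 17 higher in both. Past 95 kb the 20 peaks were mixed, 5 higher and 7 lower, with 7 higher and 4 lower under either other scaling. There the sum was 142, 157 and 79.9 CPM in TKO, 76.3, 77.0 and 60.7 CPM in CARM1 knockout and 67.2, 68.4 and 70.9 CPM in NFIB mutant libraries.

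Of the peaks at annotated starts of Nfia, chr4:97910279-97911484 fell in both mutants (log2 fold changes -1.39 and -2.14), in the CARM1 knockout under TMM scaling alone. The peak at the gene start (chr4:97771576-97772941) was called lower in the CARM1 knockout alone (-0.62 ± 0.23 (SE), adjusted p = 0.032), a call lost under both other scalings, and the difference of the mutants there was not called. The next start peak, chr4:97773059-97774032, was called higher in the NFIB mutant (0.70 ± 0.32 (SE), adjusted p = 0.076), and in both mutants under start-site scaling (0.71 and 1.16) and library totals (0.86 and 1.27), while chr4:97776514-97779252 passed in neither (-0.25 and -0.28). The largest rises were chr4:97850446-97851284, chr4:97860402-97861255 and chr4:97854425-97855467, all intronic. The first was at 0.128, 0 and 0.169 CPM in TKO, 5.99, 2.05 and 2.52 CPM in CARM1 knockout and 3.47, 3.61 and 6.04 CPM in NFIB mutant libraries. The TKO libraries held at most 4 reads of it, so its fold is not given. At chr4:97860402-97861255 the levels were 0.191, 0.433 and 0.465 CPM in TKO, 6.82, 4.95 and 4.72 CPM in CARM1 knockout and 6.58, 6.04 and 11.6 CPM in NFIB mutant libraries (log2 fold changes 3.92 and 4.48). Among the falls, chr4:98049546-98051575, chr4:97996967-97997605 and chr4:97912257-97912484, the first was at 31.9, 35.8 and 2.83 CPM in TKO, 0.439, 0.442 and 0.556 CPM in CARM1 knockout and 0.538, 0.529 and 0.471 CPM in NFIB mutant libraries. TKO library 3 was far below the other TKO libraries at this peak and above them at the second, where TKO stood at 0.988, 1.36 and 8.92 CPM. The middle 300 bases of the largest fall and rise, on the plus strand, were as follows.
Nfia fall, chr4:98050411-98050710: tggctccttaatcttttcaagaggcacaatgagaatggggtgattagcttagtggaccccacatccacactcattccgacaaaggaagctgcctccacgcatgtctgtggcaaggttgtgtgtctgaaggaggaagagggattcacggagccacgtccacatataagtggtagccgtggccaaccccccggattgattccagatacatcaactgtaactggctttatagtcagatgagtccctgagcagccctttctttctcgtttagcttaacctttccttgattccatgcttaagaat
Nfia rise, chr4:97850716-97851015: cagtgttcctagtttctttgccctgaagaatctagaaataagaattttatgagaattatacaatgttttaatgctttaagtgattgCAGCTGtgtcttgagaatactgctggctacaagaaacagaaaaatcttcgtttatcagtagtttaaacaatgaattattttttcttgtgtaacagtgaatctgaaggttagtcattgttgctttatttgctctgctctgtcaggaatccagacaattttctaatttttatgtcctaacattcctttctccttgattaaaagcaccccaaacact
The fall holds none of the motifs searched, and the rise holds CAGCTG once.

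Nfic is a case where RNA and chromatin counts did not go together. While its RNA rose, the sum of its 14 peaks was 201, 219 and 244 CPM in TKO, 146, 168 and 126 CPM in CARM1 knockout and 126, 173 and 149.7 CPM in NFIB mutant libraries, with every mutant library below every TKO library. The sum was called lower in both (-0.59 and -0.56, adjusted p = 0.014 and 0.016 by edgeR), and in neither with start-site scaling (-0.19 and -0.10). The call in the CARM1 knockout was lost without library 3 of that genotype (-0.50), and that in the NFIB mutant without TKO library 3 (-0.49) or NFIB mutant library 1 (-0.46). Single peaks were lower in both mutants at 4 places and higher at 1, or 3 and 2 with start-site scaling and 2 and 2 with library totals. Under TMM these are 28.6% and 7.14% of the Nfic peaks, against 30.8% and 35.0% of all peaks. The start peak chr10:81406827-81410189 was at 23.6, 16.4 and 20.7 CPM in TKO, 18.2, 18.2 and 16.2 CPM in CARM1 knockout and 15.2, 21.8 and 21.8 CPM in NFIB mutant libraries, overlapping. The others at starts, chr10:81423899-81427639, chr10:81429214-81432058 and chr10:81401260-81402689, had log2 fold changes of 0.14 and 0.18, of -0.58 and -0.43 and of 1.28 and 0.80, of which the third passed as higher and the second as lower in the CARM1 knockout alone. Under start-site scaling the third was called higher in both mutants (1.70 and 1.25), as under library totals (1.82 and 1.32), and the second passed under neither. The largest falls, chr10:81410460-81413040, chr10:81405748-81406294 and chr10:81432288-81436230, lay in introns. The first was at 55.4, 57.8 and 49.1 CPM in TKO, 18.2, 23.0 and 13.7 CPM in CARM1 knockout and 16.9, 24.1 and 20.6 CPM in NFIB mutant libraries (log2 fold changes -1.56 and -1.39, adjusted p = 2.1e-04 and 3.4e-04). The rise, chr10:81452220-81453473, was 2789 bp into the gene (log2 fold changes 0.85 and 0.65).

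Nfix had 14 of 31 peaks lower and 4 higher in both mutants, with its RNA passing in neither. These are 45.2% and 12.9%, against 30.8% and 35.0% of all peaks. The split was 10 lower and 6 higher with start-site scaling and 9 lower and 7 higher with library totals. The sum of its peaks was 358, 646 and 449 CPM in TKO, with library 2 the highest, 315, 275 and 309 CPM in CARM1 knockout and 245, 287 and 309 CPM in NFIB mutant libraries. It was called lower in both (-0.69 and -0.79, adjusted p = 0.019 and 0.0095 by edgeR), but in the CARM1 knockout not without TKO library 2 (-0.43), and in neither with start-site scaling (-0.27 and -0.31). The peak at the gene start, chr8:84797169-84801399, fell least of those called (log2 fold changes -0.57 and -0.66, adjusted p = 0.046 and 0.025), and 3 further start peaks fell, chr8:84768611-84773029 (-1.70 and -1.79), chr8:84773364-84776664 (-1.23 and -1.13) and chr8:84708724-84710328 (-1.26 and -1.49). The start peaks chr8:84711570-84715056 and chr8:84707021-84708189 near the gene end passed in neither. The calls at the gene start were lost under start-site scaling (-0.17 and -0.20) and library totals (-0.00831 and -0.11). The peak chr8:84708724-84710328 lost its call in the CARM1 knockout under the first and in both mutants under the second, and chr8:84711570-84715056 was called higher in the CARM1 knockout under both. The largest falls were the intronic peaks chr8:84728116-84729097, chr8:84729519-84733986 and chr8:84764160-84768019. The second was at 40.6, 76.5 and 62.9 CPM in TKO, 9.22, 10.2 and 7.47 CPM in CARM1 knockout and 7.17, 8.76 and 9.64 CPM in NFIB mutant libraries, without overlap (log2 fold changes -2.74 and -2.81, adjusted p = 3.3e-05 and 2.5e-05). The rises were chr8:84784099-84787774, chr8:84752763-84754243 and chr8:84781876-84783273, of which the first was at 4.30, 8.00 and 4.82 CPM in TKO, 30.2, 21.03 and 35.0 CPM in CARM1 knockout and 17.5, 24.1 and 31.7 CPM in NFIB mutant libraries (log2 fold changes 2.33 and 2.10).

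Over the family, 18 peaks lay within 1000 bp of an annotated start of their own gene, of which 9 were lower and 0 higher in both mutants. Of all peaks, at a start or not, 30.8% were lower and 35.0% higher in both. The shares among start peaks of all genes are not given here, so these falls cannot be called particular to the family. All 4 at Nfib were among the 9, with 4 of 6 at Nfix, 1 of 4 at Nfia and 0 of 4 at Nfic. This tally rests on the scaling, since with start-site scaling 3 of the 18 were lower and 2 higher in both, with 1 of 4 lower at Nfib and 2 of 6 at Nfix. Library totals gave 3 lower and 2 higher. The 12 falls named above for their size had both calls with start-site scaling, and 11 had them with library totals, as had all 10 rises under both. Of the other 129 peaks 43 were lower and 29 higher in both. The 29 peaks higher in both were all intronic, and of the 52 lower in both 76.9% were, against 84.4% of the 147, which were chosen to lie in or just before a gene.

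Sequence motifs were counted on both strands in the middle 300 bases of each peak, and a match is given as a description. TTGGCA, an arm of the palindrome that NFI dimers bind, was in 32.7% of the 52 NFI gene peaks lower in both mutants and in 6.90% of the 29 higher in both. In all peaks it was in 27.2% of those lower, 19.2% of those higher and 21.3% of any. The palindrome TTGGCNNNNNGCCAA was in 0 of the 147 and in 110 of all peaks (0.099%), 71 of them lower and 11 higher in both mutants. It was added after the data had been seen, since the form fixed earlier, TTGGCANNNNNTGCCAA, is longer than the palindrome that NFI dimers bind and was in 4 of all peaks and 0 of the 147. The AP-1 motif TGANTCA was in 17.2% of the higher and 13.5% of the lower NFI gene peaks, where all peaks gave 41.7% and 7.89%. For the E-box CAGCTG the shares were 17.2% and 17.3% against 18.8% and 28.1%. The forkhead motif TGTTTAC was in 3.45% and 9.62%, against 5.03% and 4.99% of all. Each share of the 29 rests on at most 5 peaks.

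Around Nfib the nearest protein-coding genes fell too. Zdhhc21, a palmitoyltransferase 92988 bp upstream of Nfib, was at 65.7, 85.7 and 129 CPM in TKO, 29.2, 23.5 and 30.3 CPM in CARM1 knockout and 25.05, 23.6 and 26.6 CPM in NFIB mutant libraries. The groups did not overlap, and it was called lower in both (log2 fold changes -1.76 and -1.90, adjusted p = 0.0027 and 0.0016 by edgeR). On the other side, Mpdz, a scaffold protein of cell junctions 847358 bp away, was also lower in both (-0.98 and -1.09, adjusted p = 0.056 and 0.035). Cer1 was lower in the NFIB mutant alone, Frem1 lower in the CARM1 knockout alone and Lurap1l higher in the NFIB mutant alone, by calls whose difference between the mutants did not pass. An antisense gene that begins within the main start peak of Nfib, Gm11266, had 78, 127 and 423 reads in TKO, 0, 14 and 1 reads in CARM1 knockout and 2, 1 and 0 reads in NFIB mutant libraries. It was called lower in both (adjusted p = 0.037 and 0.014). It shares no exon base with Nfib, but whether strand was used in counting is not given in the sources used here.

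Next to Nfic, the RNA-binding protein gene Celf5 at 3592 bp fell in both mutants (-4.44 and -4.80, adjusted p = 0.03 and 0.02) from 65.3, 31.9 and 66.7 CPM in TKO, to 0.610, 0.700 and 6.18 CPM in CARM1 knockout and 4.80, 0.616 and 0.445 CPM in NFIB mutant libraries. Ncln at 30614 bp rose in both (1.22 and 1.18, adjusted p = 0.0079 and 0.0071), and its levels were 78.2, 79.2 and 83.9 CPM in TKO, 176, 246 and 140.4 CPM in CARM1 knockout and 139, 211 and 195 CPM in NFIB mutant libraries. Beside Nfix the immediate early gene Ier2 rose in both (0.99 and 0.96), and Nacc1, Trmt1, Dand5 and Gadd45gip1 passed in neither. Beside Nfia, Patj was called lower in the CARM1 knockout (-3.04, adjusted p = 0.076) and Tm2d1 in neither. Further neighbours within 3 genes, Cyp2j5, Gm12695, Gm10192, L1td1, Tyrp1, Smim24 and S1pr4, were below 2 CPM in every library. The gene G430095P16Rik shares 137 exon bases with Nfix, and Gm16104 shares 72 with Nfic, both on the opposite strand and both with at most 26 reads in a library.

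Of 12 partners of NFI proteins, 11 were tested. In the CARM1 knockout 3 were higher and 1 lower, and in the NFIB mutant 2 higher and 2 lower, near the shares called over all genes (20.5% higher and 18.3% lower, and 22.3% and 23.5%). Nr3c1, the glucocorticoid receptor, rose in both (1.02 and 1.15, adjusted p = 0.078 and 0.048), and so did Ski, a corepressor (1.03 and 0.81, adjusted p = 0.033 and 0.061). Tdrd3, a Tudor domain protein that reads methylated arginine, fell in both (-0.85 and -1.10, adjusted p = 0.039 and 0.013). Its level was 27.9, 44.7 and 30.1 CPM in TKO, 17.8, 20.6 and 18.7 CPM in CARM1 knockout and 20.5, 13.7 and 13.6 CPM in NFIB mutant libraries, without overlap. Trim29, which the study describes as a binder of methylated NFIB, was below 1 CPM in the TKO libraries (0.336, 0.175 and 0.133) and stood at 7.32, 1.34 and 13.9 CPM in CARM1 knockout and 0, 0.493 and 1.84 CPM in NFIB mutant libraries. It was called higher in the CARM1 knockout (adjusted p = 0.036) and not in the NFIB mutant (adjusted p = 0.31), from TKO counts close to the limit of detection. Foxa1 was called lower in the NFIB mutant (-4.61, adjusted p = 0.083) and spread from 0 to 98.8 CPM in the CARM1 knockout. The median log2 fold change of the 11 was 0.06 and 0.10, against -0.03 and -0.05 over all genes.

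Genes known as NFI targets in other tissues moved in both directions, where 17.9% of all genes were called higher and 15.4% lower in both mutants. Of 5 astroglial targets tested 2 rose in both mutants, Zcchc24 (4.99 and 5.49) and Aldh1l1 (3.78 and 3.65), a folate enzyme of astrocytes, and 0 fell (median log2 fold change 2.17 and 2.56). Of 4 targets in neural progenitors 2 fell in both, Ezh2, the histone methyltransferase of Polycomb, and Grp, a neuroendocrine peptide (median -1.05 and -1.18). Ezh2, which NFI proteins repress in the developing brain, was at 190.4, 232 and 114 CPM in TKO, 54.2, 66.0 and 60.1 CPM in CARM1 knockout and 53.7, 61.8 and 45.7 CPM in NFIB mutant libraries (-1.57 and -1.74, adjusted p = 0.0042 and 0.0023). Of 5 targets in cerebellar granule neurons Ephb1 fell in both and Cntn2 in the NFIB mutant, and 0 rose. No median is given for these, since in each mutant 1 of them had no read in any library. Of 4 lung targets tested Pdpn, an alveolar and fibroblast membrane protein, rose in both (9.84 and 10.43) and 0 fell (median of the 4 1.36 and 5.37). Pdpn had 9, 7 and 7 reads in the TKO libraries, close to the limit of detection, so the size of its rise is imprecise. Of 6 tested in mesenchyme, fat, bone, muscle and skin 3 rose in both, Col1a2 (11.51 and 10.88), Pparg (2.52 and 3.71) and Eno3 (2.70 and 3.87), with a median of 2.02 and 3.16. Col1a2 had 0, 115 and 8 reads in the TKO libraries, so the size of its rise is imprecise as well. Col1a2 is a fibroblast marker too, and Pdpn is known in fibroblasts. In the CARM1 knockout 8 of 8 fibroblast markers were called higher, and 7 of 8 in the NFIB mutant. Leukocyte markers summed to 3.11 to 15.4 CPM in TKO, 40.4 to 704 CPM in CARM1 knockout and 27.6 to 491 CPM in NFIB mutant libraries. Cd3e, Cd3d and Ms4a1 were at 0 in every library. Csf1r, Cd68 and S100a8 were higher in every mutant library than in every TKO library, and Cd79a was lower. Ptprc, Itgam and Adgre1 overlapped. Ptprc was at most 1.49 CPM in TKO, 29.1, 1.87 and 57.7 CPM in CARM1 knockout and 0.365, 25.8 and 0.191 CPM in NFIB mutant libraries. For lung epithelium markers the sums were 283 to 634, 2.91 to 878 and 3.24 to 1069 CPM, but the markers did not go together. Nkx2-1 made up 601, 386 and 236 CPM of the TKO sums and was lower in every mutant library. Krt8 was at most 3.22 CPM in TKO. It was at 0.271, 0.525 and 232 CPM in CARM1 knockout and 442, 81.5 and 1.08 CPM in NFIB mutant libraries. Cdh1 and Krt18 were likewise highest in CARM1 knockout library 3 and NFIB mutant library 1. For endothelium markers the sums were 3.12 to 17.4, 2.57 to 11.5 and 0.486 to 4.56 CPM, with Cldn5 and Emcn at 0 in every library. The part of these cell type differences in the values of the NFI genes and their targets was not tested.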

How the data were processed

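RNA-seq and ATAC-seq were measured in 9 libraries each, 3 a genotype, and samples were grouped by the genotype in the labels. Per the paper's methods and the file headers, the authors trimmed RNA reads with Trim Galore, aligned them to mm10 (GRCm38) with HISAT2 and counted genes with HTSeq. ATAC reads were aligned with Bowtie2, peaks were called with MACS2 and regions of altered copy number removed, and reads were counted (featureCounts 1.6.3 in the file header) over 1 set of peaks for all libraries. The deposited values in both tables are raw counts, 15848866 to 20915057 per RNA-seq and 26917178 to 47653979 per ATAC-seq library. The column names C, KO and N were read as TKO, CARM1 knockout and NFIB mutant. The strand setting of the counting is not given in the sources used here.

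Counts were fitted per assay in 1 model of all 9 libraries with edgeR 4.0.16 (quasi-likelihood, TMM, filterByExpr by genotype, R 4.3.3), with Benjamini-Hochberg adjustment over all genes, peaks or gene sums. Sequences came from the RefSeq GRCm38 genome. DESeq2 1.42.0, other scalings, filters and sample sets were alternatives. The fits were tested on simulated data. The p-values rest on the spread among libraries of the same genotype, from 3 animals a genotype according to the labels. This spread was pooled over the genotypes and moderated across genes, peaks or gene sums. An exact permutation test of 3 against 3 cannot go below 0.10 and was not used. The members and gene lists were chosen with earlier results of these data known. Named peaks were those within 1000 bp of an annotated start (GENCODE vM21) of their own gene and, per gene, the 3 largest rises and 3 largest falls called in both mutants without overlap with TKO and with at least 1 CPM in the higher genotype. Named genes were the members, 3 neighbours on each side, the members of the lists called in both mutants or named by the study, and the 5 genes most alike to each member. Some genes under this rule are not reported here.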

Additional observations from a re-analysis of the deposited data

How the results depend on the processing

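239 of 252 repeats of the RNA values of the NFI genes, 159 of 192 of their peak sums and 127 of 132 of the shares kept direction and side of the threshold or stayed within 1 SD. Scaling by library totals called Nfia (-1.0) and Nfix (-0.84) lower in the NFIB mutant. Under it the peak sums in the CARM1 knockout, the NFIB mutant and both together were 0.25, 0.39 and 0.32 for Nfia, whose sign turned, -0.45, -0.41 and -0.43 for Nfib, -0.0333, -0.00854 and -0.0209 for Nfic and -0.10, -0.20 and -0.15 for Nfix, with none of these called. With start-site scaling they were 0.0705, 0.28 and 0.18 for Nfia, -0.19, -0.10 and -0.15 for Nfic and -0.27, -0.31 and -0.29 for Nfix, none called, and -0.49 for Nfib in the NFIB mutant. The scalings move all peaks of a library alike, as the shifts of the median peak show.

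Leaving out 1 library at a time, the RNA log2 fold change ran from -1.68 to -0.94 for Nfia and 0.85 to 1.55 for Nfic in the CARM1 knockout, and from -1.17 to -0.67 for Nfia in both mutants together, where the call was lost without TKO library 1 (-0.67) or 2 (-0.90). Between the mutants it ran from -0.21 to 0.70 for Nfib and -0.36 to 0.25 for Nfic, turning sign without CARM1 knockout library 2 (-0.21 and -0.36) and, for Nfic, NFIB mutant library 1 (-0.17). Peak sums ran from -0.51 to -0.24 for Nfia, -0.70 to -0.50 for Nfic and -0.87 to -0.43 for Nfix in the CARM1 knockout, -0.69 to -0.46 for Nfic in the NFIB mutant and -0.92 to -0.48 for Nfix in both together. The sum of Nfia was called lower in the CARM1 knockout without TKO library 3, and that of Nfix lost its call in both together without TKO library 2. Between the mutants the sums ran from -0.30 to 0.0710 for Nfib and -0.14 to 0.0869 for Nfic.

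With the limits set at 0.01 for the adjusted p and 1 for the log2 fold change, 32 NFI peaks were lower and 17 higher in the CARM1 knockout, 19 higher in the NFIB mutant and 19 higher in both together. Shares of all peaks at these limits are not given here. With at least 10 counts in every library, which removes peaks that are near 0 in a genotype, 21 were higher in the CARM1 knockout, 24 in the NFIB mutant, and 22 higher and 42 lower in both together. Of all 65496 peaks then tested, 20978 were higher in the CARM1 knockout and 21816 in the NFIB mutant. In both together 22566 of them were higher and 19823 lower. By the longest transcript the share of Nfib was 37.3% in TKO and 9.04% in the NFIB mutant, that of Nfic 14.9% and 46.3%, and that of Nfix 40.6% in the NFIB mutant. Replicate numbers did not pair the libraries: deviations of same-numbered libraries correlated at -0.297 to 0.118 (RNA-seq) and -0.142 to 0.118 (ATAC-seq), over 0.1 in 1 of 9 pairs each. With the replicate number as a block, the log2 fold change of Nfib was -2.16 and -2.44. NFI peaks were then 33 higher and 58 lower in the CARM1 knockout, where 42140 of all 111116 peaks were higher and 34508 lower. The block changed no call of an NFI gene or peak sum. Where no cause is given, the cause was not tested. With 3 libraries a genotype and peaks of under 10 reads in a group, small differences were not detectable at this depth.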
